A study of Homo sapiens with 6 samples.

Results

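The genes described here are 10 inflammatory cytokines and chemokines, CXCL1, CXCL2, CXCL3, CXCL8, CXCL10, CCL2, CCL5, IL6, IL1A and IL1B, taken by gene name from the 78932 genes of the deposited count table. Of the 10 genes, 6 passed the count minimum used for testing, which was 10 counts in at least 3 libraries, and 4 did not. After TRIM28 silencing CXCL8 and CXCL1 rose and CCL2 fell, whereas CXCL2 and CXCL3 did not pass the test. CCL5 was close to 0 in siNC and had more counts in siTRIM28, but it passed the minimum only through its siTRIM28 libraries. CXCL10, IL6, IL1A and IL1B had at most 2 counts in any library.

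Chemokines are small secreted proteins that steer the movement of leukocytes. CXCL1, CXCL2, CXCL3 and CXCL8 carry a glutamate-leucine-arginine (ELR) motif ahead of their CXC cysteines and attract neutrophils through the receptors CXCR1 and CXCR2. CXCL10 is an interferon-induced ligand of CXCR3, CCL2 attracts monocytes through CCR2, and CCL5 attracts T cells and monocytes. IL-6, IL-1α and IL-1β are cytokines that start and sustain the acute inflammatory response, and transcription of most of these genes responds to NF-κB and AP-1, while their short-lived transcripts are subject to AU-rich element decay.

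The data are poly(A) RNA-seq libraries of T24, a human urothelial carcinoma cell line of the bladder. TRIM28 (also KAP1) is a transcriptional corepressor and SUMO E3 ligase. Of the libraries, 3 are from cells given siRNA against it (siTRIM28) and 3 from cells given a negative control siRNA (siNC). The sample titles number them as replicates and do not say whether each came from a separate culture, so n = 3 counts libraries. All 6 libraries carried the same batch label, and neither the interval between transfection and harvest nor which siRNA was used for sequencing is given in the sources used here. The comparison asked how the transcriptome changes when TRIM28 is depleted in this cell line.

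Between 11712623 and 14018052 reads per library were assigned to genes. TRIM28 itself had 1419, 1393 and 1382 counts in the siNC libraries and 130, 96 and 109 in the siTRIM28 libraries, a log2 fold change of -3.54 ± 0.072 (SE, adjusted p = 1.03e-10). Within each group a close pair of libraries stood apart from the remaining library: the χ2 per degree of freedom between libraries was 1.08 for siNC replicates 1 and 2 and 1.22 for siTRIM28 replicates 2 and 3, against 4.17 to 6.25 for the other within-group pairs. With only these close pairs compared, and 10 counts required in 2 libraries, 3 of the 10 genes were called higher and 1 lower. This comparison was chosen after seeing the data and keeps the libraries with the least spread within a group. Its calls are therefore no check on those made with all 6 libraries. CCL5 again passed the minimum only through its siTRIM28 libraries. Over all genes 8140 were called in this comparison, beside 7723 with all 6 libraries. Of 14 epithelial and urothelial markers, 5 passed the minimum and 4 of these were called higher, beside 21.3% of all genes tested. The 4 were KRT7, KRT8, TP63 and UPK1A, the last from 0.874 ± 0.49 to 3.41 ± 0.658 CPM (counts scaled by library size). TP63 had 9, 4 and 6 counts in siNC and 11, 15 and 10 in siTRIM28. It passed the minimum only through the siTRIM28 libraries, so its call is no support for a rise. KRT8 stood at 104 CPM in siNC and 114 CPM in siTRIM28, and KRT18 at 86.1 and 91.2 CPM. Against the urothelial label EPCAM had at most 6 counts, CDH1 at most 2, UPK2 at most 7 and GATA3 at most 10 in any library. Of 12 leukocyte markers only CD68, a lysosomal protein also made outside leukocytes, passed the minimum, PTPRC (CD45) had at most 4 counts, CD3E and NKG7 had 0 in all 6 libraries, and the summed level of the list was 346 to 351 CPM in siNC and 338 to 362 CPM in siTRIM28. Of 8 endothelial and fibroblast markers only PDGFRA passed, with no call, and the list summed to 1.73 to 2.66 CPM in siNC and 1.93 to 2.87 CPM in siTRIM28.

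The promoters are shown because a κB-type motif is the sequence feature that most of the members share. Of the 10 genes, 8 had a promoter window of 300 bases in the RefSeq table (GRCh38.p14), running from 250 bases before to 50 bases after the start of transcription. CCL2 and CCL5 had none. The letters GGANTTTCC, a κB-type motif searched on both strands, were found in 6 of these genes, CXCL1, CXCL2, CXCL3, CXCL8, CXCL10 and IL6, and in 1.64% of the 35116 windows of the same length in the table (577 windows). The stretches around the match are given 5′ to 3′ on the strand of the gene, with the match in capitals, for chr4:73869295-73869343 (plus strand), chr4:74099244-74099292 (minus), chr4:74038739-74038787 (minus), chr4:73740458-73740506 (plus), chr4:76023645-76023693 (minus) and chr7:22727108-22727156 (plus).
CXCL1: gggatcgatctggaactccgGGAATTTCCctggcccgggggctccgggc
CXCL2: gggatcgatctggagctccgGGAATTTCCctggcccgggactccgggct
CXCL3: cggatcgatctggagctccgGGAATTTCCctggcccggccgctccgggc
CXCL8: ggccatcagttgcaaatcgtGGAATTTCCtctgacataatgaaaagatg
CXCL10: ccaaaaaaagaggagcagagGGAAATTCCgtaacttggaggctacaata
IL6: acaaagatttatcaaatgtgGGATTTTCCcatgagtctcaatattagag
The match began 78, 77 and 78 bases before the start in CXCL1, CXCL2 and CXCL3, 91 bases before it in CXCL8, 72 in IL6 and 176 in CXCL10, where the motif reads on the opposite strand. The stretches of CXCL1, CXCL2 and CXCL3 were nearly alike. Over the whole window, aligned without gaps, CXCL1 and CXCL3 matched at 68.7% of positions, CXCL1 and CXCL2 at 51.7% and CXCL2 and CXCL3 at 48.3%. The best ungapped match of CXCL8 to any of them was 32.4%. As the motif begins at 77 bases in CXCL2 and 78 in CXCL1 and CXCL3, the windows fall out of register without gaps. The values for CXCL2 may therefore be too low. The looser form GGNNNTTCC, which overlaps the first motif, was found in the same 6 genes and in 20.1% of all windows.

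The 250 bases before the start are shown for CXCL8, the ELR chemokine with the largest change, and for CXCL1, the most abundant, with matches to GGANTTTCC, to the AP-1 motif TGANTCA and to the interferon-response type motif GAAANNGAA in capitals, at chr4:73740319-73740568 and chr4:73869143-73869392 (both plus strand).
CXCL8: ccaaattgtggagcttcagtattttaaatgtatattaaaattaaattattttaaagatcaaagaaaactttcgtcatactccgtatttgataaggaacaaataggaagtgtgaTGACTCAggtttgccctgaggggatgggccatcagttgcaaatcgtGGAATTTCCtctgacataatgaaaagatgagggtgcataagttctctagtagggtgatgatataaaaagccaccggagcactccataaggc
CXCL1: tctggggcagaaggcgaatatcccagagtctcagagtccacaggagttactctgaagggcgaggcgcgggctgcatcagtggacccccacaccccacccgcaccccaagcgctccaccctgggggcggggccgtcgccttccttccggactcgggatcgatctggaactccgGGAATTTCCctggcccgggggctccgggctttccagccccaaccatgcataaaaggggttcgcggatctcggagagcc
TGANTCA lay 137 bases before the start of CXCL8 and was also found in IL1A, but in none of the other members with a window, against 7.71% of all windows. GAAANNGAA was found in CXCL2, CXCL3, CXCL10 and IL6, against 8.11% of all windows. A κB-type match was thus present in genes that rose, in genes that did not pass the test and in genes with almost no counts. These matches describe letters in a window and carry no information on binding.

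Among the ELR chemokines CXCL8 (ENSG00000169429, interleukin-8; chr4:73740519-73743715, plus strand, GRCh38) changed most. It had 37, 53 and 52 counts in the siNC libraries and 219, 228 and 219 in the siTRIM28 libraries. All siTRIM28 libraries lay far above all siNC libraries. Its level was 3.52 ± 0.754 CPM in siNC and 17.8 ± 1.91 CPM in siTRIM28 (SD, n = 3), and it rose 5.04-fold, or by 2.33 ± 0.14 (SE) on the log2 scale, with an adjusted p of 2.41e-07 from edgeR's quasi-likelihood test. In bulk RNA more transcript per cell and more cells making it cannot be told apart, here or for the genes below. By size this was number 32 among the rises of the 18474 genes tested.

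CXCL1 (ENSG00000163739, GROα; chr4:73869393-73871308, plus strand) had 146, 178 and 145 counts in siNC and 252, 200 and 202 in siTRIM28. Its groups did not overlap either, but they lay closer together. CXCL1 stood at 11.6 ± 1.19 CPM in siNC and 17.3 ± 0.596 CPM in siTRIM28, and it rose by 0.58 ± 0.086 on the log2 scale, or 1.50-fold (adjusted p = 0.000227).

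CXCL2 (ENSG00000081041, GROβ; chr4:74097040-74099196, minus strand) had 30, 25 and 24 counts in siNC and 47, 25 and 36 in siTRIM28. The second siTRIM28 library lay among the siNC libraries, and the other two lay above them. The log2 fold change was 0.55 ± 0.22 with an adjusted p of 0.0659, so CXCL2 was not called, although its estimate was close to that of CXCL1. Without siTRIM28 replicate 2 the log2 fold change was 0.71 and CXCL2 passed the threshold (adjusted p = 0.0228). CXCL3 (ENSG00000163734, GROγ; chr4:74036589-74038689, minus strand) had 93, 70 and 74 counts in siNC and 82, 79 and 90 in siTRIM28. Its groups overlapped, and the log2 fold change of 0.19 ± 0.15 did not pass the test (adjusted p = 0.346).

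**Figure D1:**
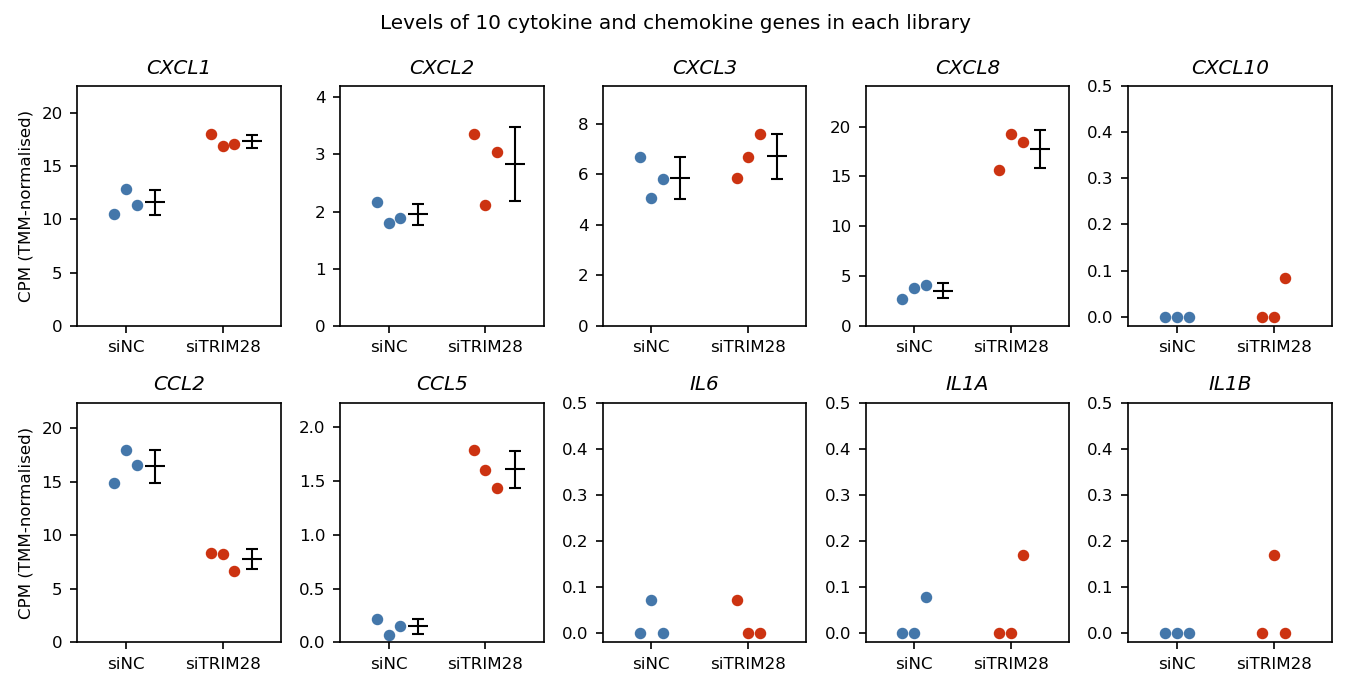
Level of each of the 10 genes in each library, in CPM after TMM normalisation on linear axes that differ between panels; points are libraries, and for the 6 genes above the count minimum the bars give mean ± SD (n = 3). CXCL8, CXCL1 and CCL5 were higher and CCL2 was lower in all siTRIM28 libraries, while CXCL10, IL6, IL1A and IL1B stayed below 0.2 CPM.

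Over all genes tested, 21.3% were called higher and 20.5% lower in siTRIM28, and in 52% the groups did not overlap. Of the 10 genes, 3 were called higher (CXCL1, CXCL8 and CCL5) and 1 lower (CCL2), with the groups apart in the same 4 genes. With a background this high the number of calls says nothing particular about the 10 genes. The lists of related genes below were not tested as lists. The calls of CXCL8, CXCL1 and CCL2 were also made under every alternative. CCL5 passed the minimum only through its siTRIM28 libraries. It dropped out of the alternatives that left out any of these or required 10 counts in every library, so its other calls are no check.

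The ELR chemokines did not keep their proportions. The log2 ratio of CXCL1 to CXCL8 within a library was 1.69 ± 0.24 (SD) in siNC and -0.034 ± 0.21 in siTRIM28, a difference of -1.73 ± 0.18 (SE). The ratio of CXCL2 to CXCL8 changed by -1.82 ± 0.37 and that of CXCL3 to CXCL8 by -2.11 ± 0.29. In each of these 3 ratios the groups did not overlap, which gave an exact two-sided permutation p of 0.1, the smallest that 3 against 3 libraries allow, and 0.175 after adjustment over the 7 pairs compared. Among CXCL1, CXCL2 and CXCL3 the ratios changed by 0.092 ± 0.23 (CXCL1 to CXCL2), 0.38 ± 0.24 (CXCL1 to CXCL3) and 0.29 ± 0.24 (CXCL2 to CXCL3), and all 3 overlapped between the groups (exact permutation p = 0.7, 0.3 and 0.4).

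Per length, CXCL8 made up 7.73%, 10.2% and 11.4% of the summed reads per kilobase of these 4 genes in the siNC libraries and 24.9%, 30.5% and 28.3% in the siTRIM28 libraries. Every siTRIM28 library gave CXCL8 a larger share than any siNC library. CXCL1 stayed the most abundant of the 4, at 61.1 ± 3.68% in siNC and 51.6 ± 2.49% in siTRIM28 (SD, n = 3). The share of CXCL3 was 19.1 ± 3.48% in siNC and 12.3 ± 1.35% in siTRIM28, that of CXCL2 was 10.1 ± 1.39% and 8.23 ± 1.87%, and the summed level of the 4 genes was 13.9 ± 0.59 RPKM (CPM per kilobase of gene) in siNC and 24.6 ± 0.546 RPKM in siTRIM28.

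**Figure D2:**
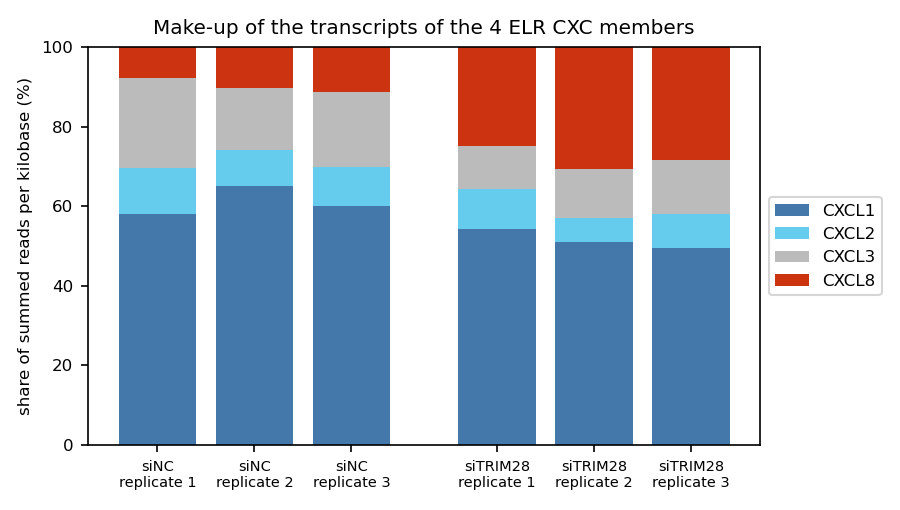
Share of CXCL1, CXCL2, CXCL3 and CXCL8 in their summed reads per kilobase in each of the 6 libraries, in percent of each library's sum. The CXCL8 share ran from 7.73% to 11.4% in siNC and from 24.9% to 30.5% in siTRIM28.

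CXCL1, CXCL2 and CXCL3 are close paralogues and their transcripts share stretches within which a read, if short enough, could not be assigned to 1 gene. In the GENCODE transcripts 4.81% of the sequence windows of 50 bases in CXCL1, 12.5% in CXCL2 and 6.01% in CXCL3 also occurred in another of the 4 genes, and none of CXCL8. At 100 bases, 79 of 1581 windows of CXCL2 also occurred in CXCL3 and none of CXCL1 or CXCL8 did in another of the genes, and the read length is not given in the sources used here. CXCL3 also lies inside ENSG00000287037, a gene on the opposite strand with 34, 49 and 49 counts in siNC and 68, 77 and 59 in siTRIM28, and CXCL2 overlaps ENSG00000289241 on the opposite strand, which had at most 10 counts in any library. The strand setting of the counting is not stated, so the values of these overlapping genes are uncertain.

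Of the CC chemokines CCL2 fell, while CCL5 was near 0 in siNC and had more counts in siTRIM28. CCL2 (ENSG00000108691, MCP-1; chr17:34255274-34257203, plus strand) had 206, 248 and 211 counts in siNC and 117, 98 and 79 in siTRIM28. No siTRIM28 library came near the siNC range. CCL2 stood at 16.4 ± 1.54 CPM in siNC and fell to 7.77 ± 0.95 CPM in siTRIM28, which is 2.11-fold lower (log2 change -1.08 ± 0.11, adjusted p = 1.19e-05).

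CCL5 (ENSG00000271503, RANTES; chr17:35871491-35880793, minus strand) had 3, 1 and 2 counts in siNC and 25, 19 and 17 in siTRIM28. It was barely detected in the control libraries and low but present in every siTRIM28 library. It passed the count minimum only through the siTRIM28 libraries, so a gene at its siNC level had to differ in order to be tested at all. Its call is therefore no support for a rise. Summed over the libraries and scaled to their sizes, 6 counts against 61 gave a ratio of 10.9 with a 95% exact interval of 4.74 to 30.9, which covers counting error only. The fitted log2 fold change was 3.37 ± 0.39 (adjusted p = 3.38e-05) and depends on the prior count at this depth.

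The log2 ratio of CCL2 to CCL5 was 5.80 ± 0.49 (SD) in siNC and 2.17 ± 0.084 in siTRIM28, a difference of -3.64 ± 0.29 (SE). The groups did not overlap (exact permutation p = 0.1, adjusted p = 0.175). This pair was compared only because CCL5 passed the count minimum through its siTRIM28 libraries, so the lack of overlap is no support for a change. At 1 to 3 counts of CCL5 the siNC ratio also depends on the prior count of 2. In siTRIM28 CCL2 remained more abundant than CCL5, at 4.01 ± 0.491 against 1.18 ± 0.128 RPKM.

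**Figure D3:**
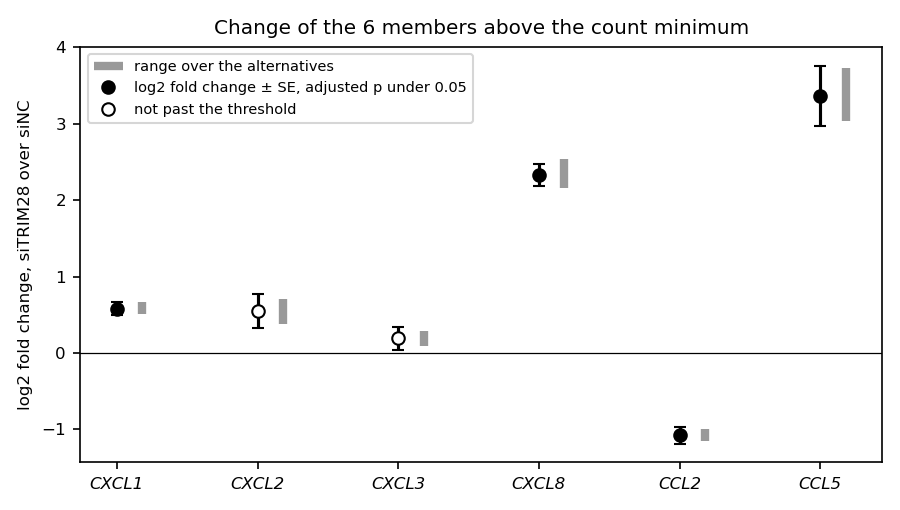
Log2 fold change of siTRIM28 over siNC with its SE for the 6 genes above the count minimum (filled, adjusted p under 0.05; open, not past it), beside the range over the alternative analyses in grey. CXCL8 (2.33) and CCL5 (3.37) stood above CXCL1 (0.58), CCL2 (-1.08) was the only gene below 0, and no range crossed 0.

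The remaining 4 genes were at the limit of detection. CXCL10 (ENSG00000169245; chr4:76021118-76023497, minus strand) had 0 counts in the 3 siNC libraries and 0, 0 and 1 in siTRIM28. IL6 (ENSG00000136244; chr7:22725884-22731729, plus strand) had 0, 1 and 0 counts in siNC and 1, 0 and 0 in siTRIM28. IL1A (ENSG00000115008; chr2:112773925-112784493, minus strand) had 0, 0 and 1 counts in siNC and 0, 0 and 2 in siTRIM28. IL1B (ENSG00000125538; chr2:112829751-112836779, minus strand) had 0 counts in siNC and 0, 2 and 0 in siTRIM28. No direction can be read for any of them. A count of 0 in 1 library allows up to 3 counts, which is 0.214 to 0.253 CPM depending on the library, so differences below this level were not detectable at this depth. STEAP1B, which overlaps IL6 on the opposite strand, and ENSG00000299339, which spans IL1A and IL1B on the opposite strand, had 295 to 571 and 49 to 129 counts in the same libraries.

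The order of the levels changed with the silencing. In siNC CXCL1 and CCL2 came first at 8.50 ± 0.871 and 8.49 ± 0.798 RPKM and did not differ beyond their spread, followed by CXCL3 at 2.64 ± 0.37 RPKM. CXCL2 and CXCL8 then lay side by side at 1.39 ± 0.133 and 1.36 ± 0.291 RPKM, again within their spread, and CCL5 came last of the 6 at 0.109 ± 0.053 RPKM. Against the genes tested, whose median was 2.72 RPKM, CXCL1 and CCL2 stood at percentile 75.4, CXCL3 at 49.2, CXCL2 at 33.3, CXCL8 at 32.7 and CCL5 at 1.65. In siTRIM28 CXCL8 moved up to second place at 6.88 ± 0.737 RPKM, below CXCL1 at 12.7 ± 0.437 and above CCL2. CXCL3 at 3.02 ± 0.394 RPKM and CXCL2 at 2.03 ± 0.463 followed, and CCL5 at 1.18 ± 0.128 RPKM was again the lowest of the 6. This order depends on the gene lengths used. In CPM, without length, CXCL8 (17.8 ± 1.91) was level with CXCL1 (17.3 ± 0.596) in siTRIM28. In siNC CCL2 (16.4 ± 1.54 CPM) lay above CXCL1 (11.6 ± 1.19), and CXCL8 (3.52 ± 0.754) above CXCL2 (1.95 ± 0.187).

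The CXC genes from CXCL8 to CXCL2 lie within 358.7 kb of chromosome 4, among 24 annotated genes of which 8 passed the count minimum. CXCL8, CXCL1 and ENSG00000287037 (log2 fold change 0.73 ± 0.20, adjusted p = 0.0106) were called higher, and none of the 8 was called lower. CXCL6, an ELR chemokine situated between CXCL8 and CXCL1, had 69, 75 and 78 counts in siNC and 75, 57 and 75 in siTRIM28, with a log2 fold change of 0.0018 ± 0.15 (adjusted p = 0.995). CXCL5, PF4 and PPBP, further chemokines of the cluster, had 0 counts in all 6 libraries. Within 100 kb of CCL2, 14 genes were annotated and CCL2 was the only one above the minimum, while its neighbour CCL7, another monocyte attractant, had 5, 5 and 0 counts in siNC and 1, 0 and 2 in siTRIM28. Within 100 kb of CCL5, 3 of 19 genes passed, and the other two were TAF15 (log2 fold change -0.13 ± 0.043, adjusted p = 0.0341) and RDM1 (0.19 ± 0.16, adjusted p = 0.368).

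**Figure D4:**
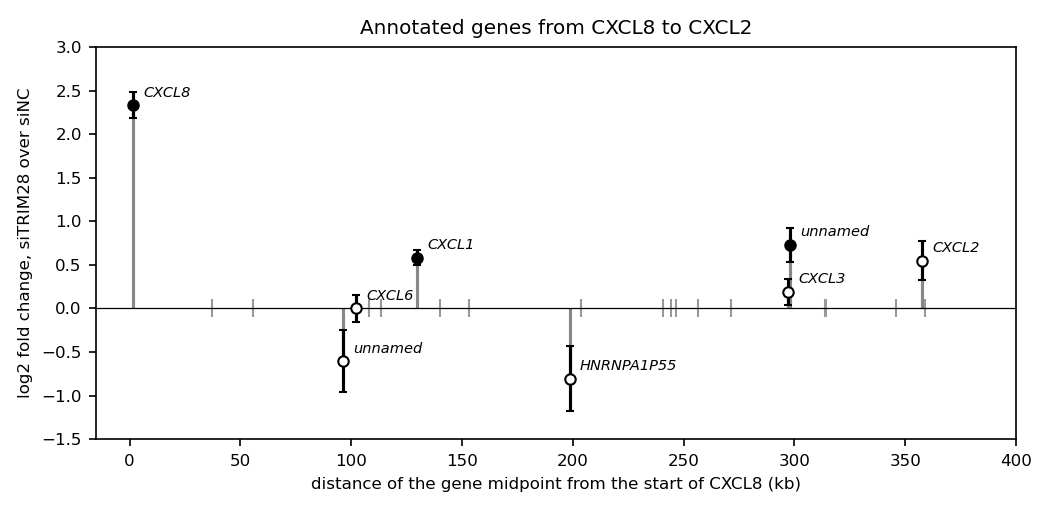
Log2 fold change with SE of the 8 tested genes of the CXC cluster against the distance of each gene's midpoint from the start of CXCL8 in kb (filled, adjusted p under 0.05; open, not past it); ticks on the zero line mark annotated genes under the count minimum. CXCL8 had the largest value at 2.33, and CXCL6, between it and CXCL1, was at 0.0018.

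Most other chemokines had few counts or none. Of 37 further chemokine genes 2 passed the minimum and 20 had 0 counts in all libraries. CXCL16, a ligand of CXCR6, rose with a log2 fold change of 0.89 ± 0.25 (adjusted p = 0.0132), and CXCL6 is given above. Of 36 other cytokines 8 passed, with LIF, IL11 and CLCF1 called higher and IL32 called lower. Over all genes tested 21.3% were called higher and 20.5% lower. The median log2 fold change of the 8 was 0.28, beside 0.015 over all genes tested. LIF, a cytokine of the IL-6 family, rose from 19.2 ± 2.16 CPM in siNC to 32.6 ± 0.608 CPM in siTRIM28 (log2 change 0.76 ± 0.080, adjusted p = 1.63e-05). IL11, a further cytokine of this family, rose by 0.45 ± 0.13 on the log2 scale (adjusted p = 0.0135). CLCF1, which signals through the same gp130 chain, rose by 0.58 ± 0.21 on the log2 scale (adjusted p = 0.0432), although its groups overlapped. IL32, a proinflammatory cytokine, fell with a log2 fold change of -0.32 ± 0.11 (adjusted p = 0.0273). The 3 cytokines that rose are known to signal through gp130, as IL-6 does, while IL6 itself had at most 1 count in any library.

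The leukocyte receptors of the chemokines had almost no counts. CXCR1, CXCR2 and CXCR3 had 0 counts in all 6 libraries and CCR2 had 1 count in 1 library. IL6ST (gp130, the signal-transducing chain for IL-6 and LIF) stood at 48.1 ± 2.47 CPM in siNC and 53.2 ± 3.09 CPM in siTRIM28 (log2 fold change 0.14 ± 0.066, adjusted p = 0.102). IL6R gave 0.35 ± 0.14 (adjusted p = 0.0728) and IL1R1 0.12 ± 0.14 (adjusted p = 0.519), neither past the threshold. IL1RAP, the accessory chain that IL1R1 needs for signalling, fell from 10.2 ± 0.306 CPM in siNC to 5.96 ± 0.652 CPM in siTRIM28 (log2 change -0.79 ± 0.12, adjusted p = 0.000214). IL1RN, the IL-1 receptor antagonist, had 1 count in all. Of the 17 receptors and antagonists listed, 5 passed the minimum, 1 was called lower and none was called higher by edgeR's test. Over all genes tested 20.5% were called lower and 21.3% higher.

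Downstream of the IL-1 and IL-6 receptors, 19 of 20 listed genes passed. Of these 5 were called higher and 6 lower, beside 21.3% and 20.5% of all genes tested, and the median log2 fold change was -0.059. MYD88, the adaptor of IL-1 and Toll-like receptors, fell from 3.34 ± 0.484 CPM in siNC to 1.54 ± 0.089 CPM in siTRIM28 (log2 change -1.11 ± 0.20, adjusted p = 0.00101). CHUK, the IKKα kinase, fell with -0.62 ± 0.082 (adjusted p = 8.55e-05), whereas the kinase IRAK2 rose by 0.58 ± 0.093 (adjusted p = 0.00038) and IKBKG, the regulatory subunit NEMO, rose by 0.36 ± 0.085 on the log2 scale (adjusted p = 0.00549). SOCS3, an inhibitor of gp130 signalling, gave -0.059 ± 0.10 (adjusted p = 0.68).

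Of 13 genes that process or release IL-1, 8 passed, with 3 called higher and none lower by edgeR's test and a median log2 fold change of -0.0069. NLRP3, the sensor of an inflammasome, had 110, 119 and 104 counts in siNC and 311, 302 and 273 in siTRIM28. Its groups were far apart, with 8.22 ± 0.343 and 23.6 ± 1.71 CPM and a log2 fold change of 1.52 ± 0.083 (adjusted p = 9.65e-08). NLRP1, another inflammasome sensor, rose by 0.64 ± 0.083 on the log2 scale (adjusted p = 7.84e-05). In the same list PYCARD had 0, 0 and 0 counts in siNC and 1, 1 and 0 in siTRIM28, and CASP1, given at the end, was also under the minimum. Of the cytokines that NLRP3 and NLRP1 help to mature, IL1B had 2 counts in all 6 libraries together. IL18 stood at 20.5 ± 1.68 CPM in siNC and 22.05 ± 1.85 CPM in siTRIM28, with a log2 fold change of 0.11 ± 0.084 that did not pass the test (adjusted p = 0.341).

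Of 22 transcription factors linked to these promoters 20 passed, with 9 called higher and 4 lower, beside 21.3% and 20.5% of all genes tested. The median log2 fold change of the 20 was 0.13. The 9 include FOSB, with 6, 8 and 3 counts in siNC and 14, 12 and 13 in siTRIM28. FOSB passed the minimum only through the siTRIM28 libraries, so its call is no support for a rise. Members of the AP-1 family moved in both directions. FOSL1 had 2540, 2521 and 2450 counts in siNC and 5799, 5501 and 5561 in siTRIM28, a rise from 186 ± 5.56 CPM in siNC to 450 ± 30.7 CPM in siTRIM28 (log2 change 1.28 ± 0.052, adjusted p = 1.32e-08). FOS, at a much lower level, rose by 1.21 ± 0.14 (adjusted p = 3.13e-05), whereas FOSL2 fell with -0.83 ± 0.054 (adjusted p = 3.58e-07) and JUND with -0.69 ± 0.10 (adjusted p = 0.000256). IRF1, an interferon-induced factor, gave 0.32 ± 0.12 and did not pass the threshold (adjusted p = 0.0624).

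Of 18 listed genes that NF-κB induces or that regulate its pathway 15 passed. Of these 5 were called higher and 2 lower, beside 21.3% and 20.5% of all genes tested, and the median log2 fold change was 0.23. BIRC3 (cIAP2) rose from 86.4 ± 1.34 CPM in siNC to 170 ± 3.38 CPM in siTRIM28 (log2 change 0.98 ± 0.043, adjusted p = 2.06e-08) and IER3 rose by 0.74 ± 0.063 (adjusted p = 2.95e-06). SOD2, the mitochondrial superoxide dismutase, fell from 87 ± 1.8 CPM in siNC to 45.5 ± 4.21 CPM in siTRIM28 (log2 change -0.93 ± 0.067, adjusted p = 7.85e-07), and TRAF1 fell with -0.67 ± 0.14 (adjusted p = 0.0022). The feedback inhibitors NFKBIA (IκBα, -0.14 ± 0.080, adjusted p = 0.199) and TNFAIP3 (A20, 0.23 ± 0.12, adjusted p = 0.158) did not pass the test.

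All 12 listed regulators of cytokine mRNA decay passed, with 3 called higher and 2 lower, beside 21.3% and 20.5% of all genes tested. The median log2 fold change of the 12 was 0.081. ZFP36 (tristetraprolin), which binds AU-rich elements and promotes decay, rose from 5.62 ± 0.998 CPM in siNC to 12.7 ± 1.44 CPM in siTRIM28 (log2 change 1.17 ± 0.14, adjusted p = 4.8e-05). TIAL1, an AU-rich element binding protein, rose by 0.21 ± 0.050 (adjusted p = 0.00588). RC3H2 (Roquin-2), which promotes decay through stem-loops, fell from 43.9 ± 1.45 CPM in siNC to 21.8 ± 1.87 CPM in siTRIM28 (log2 change -1.01 ± 0.072, adjusted p = 7.73e-07), and ARID5A, which stabilises IL6 mRNA, fell with -0.62 ± 0.17 (adjusted p = 0.0134). The part of any of these genes in the changes of CXCL8, CXCL1, CCL5 and CCL2 was not tested.

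**Figure D5:**
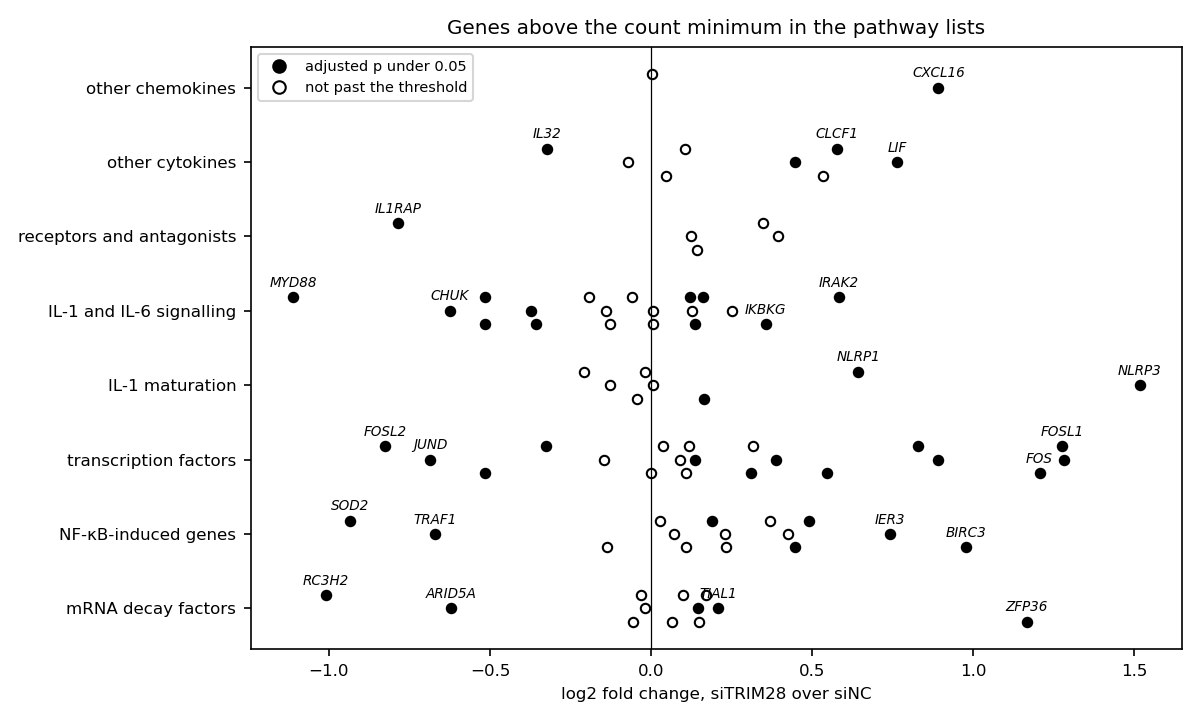
Log2 fold change of siTRIM28 over siNC for each gene above the count minimum in 8 lists of related genes, 1 point per gene (filled, adjusted p under 0.05; open, not past it), with the named genes labelled. NLRP3 (1.52), FOSL1 (1.28) and ZFP36 (1.17) lay far to the right and MYD88 (-1.11) and RC3H2 (-1.01) far to the left, and most lists held calls in both directions.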

How the data were processed

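Poly(A) RNA of T24 cells was sequenced in 6 libraries (3 siNC, 3 siTRIM28, grouped by the labels). The authors deposited 1 table of raw counts per gene on GRCh38. The submitters' processing notes name fastp 0.23.1, STAR 2.7.6a and featureCounts, while the annotation release, read length, strand setting and handling of duplicates are not given in the sources used here. Reads shared by paralogues or overlapping genes could therefore be dropped or split. A second deposited table, with the authors' RPKM values and comparison of selected genes, was not used.

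Genes that reached 10 counts in 3 or more libraries (18474 of 78932) were tested with edgeR 4.0.16 (R 4.3.3) by the quasi-likelihood test after TMM normalisation, with Benjamini-Hochberg adjustment over all genes tested and a threshold of 0.05. CPM and RPKM were computed from the counts with the TMM sizes and the gene lengths in the table. The common biological coefficient of variation was 0.0733. The test was checked on simulated data. Ratios between 2 genes used log2 CPM with a prior count of 2 and exact two-sided permutation tests over libraries. Alternatives were DESeq2 1.42.0, limma-voom (limma 3.58.1), scaling by RLE, total counts or upper quartiles, other filters, leaving out each library, the replicate number as a block and merged or selected close libraries. Promoter windows came from RefSeq (GRCh38.p14), and transcripts from GENCODE. Protein sequences were not analysed here.

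The 10 genes and the lists of related genes were chosen with earlier results of these data known. Named were the 10 genes, TRIM28, fixed receptors and antagonists (1 of which is not reported here) and 4 fixed regulators (NFKBIA, TNFAIP3, IRF1 and SOCS3), and from each other list the 2 largest rises and the 2 largest falls among called genes with a mean of at least 20 counts. Marker lists are given by counts and their most abundant genes. IL11, the third largest rise of its list, IL18, FOSB, and further genes named as neighbours, overlapping genes, near-silent relatives or markers, and those under the closing observations, were chosen after their values were seen.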

Additional observations from a re-analysis of the deposited data

How the results depend on the processing

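No alternative reversed a direction among the 6 tested members or TRIM28, and the calls of CXCL8, CXCL1 and CCL2 were made in each of them. Where a log2 change of 0.58 was also required, CXCL1 only just met it, at 0.5816. Its log2 change was 0.5758 with RLE factors and 0.5756 with DESeq2. Leaving out 1 library gave log2 fold changes of 2.16 to 2.44 for CXCL8, 0.51 to 0.66 for CXCL1, -1.15 to -0.99 for CCL2, 0.086 to 0.29 for CXCL3 and 0.40 to 0.71 for CXCL2, which passed the threshold only without siTRIM28 replicate 2 (0.71). CCL5 gave 3.04 to 3.72 without 1 siNC library, and under the usual minimum of 10 counts in 3 libraries it could not be tested when 1 siTRIM28 library was left out, nor with 10 counts required in every library, since only its 3 siTRIM28 libraries reach 10 counts. Among all genes 7723 were called. This count was 5878 with DESeq2, 5830 with the close libraries summed, 8130 without siTRIM28 replicate 1 and 3144 when a log2 change of 0.58 or more in size was also required. With upper-quartile scaling 56.6% of the calls were higher, beside 51.1%. Shares taken from raw counts, without gene length, were 50.5% for CXCL1, 8.54% for CXCL2, 25.6% for CXCL3 and 15.3% for CXCL8 in siNC, and 38.8%, 6.37%, 15% and 39.8% in siTRIM28, which places CXCL8 level with CXCL1 there. With the close libraries alone (siNC 1 and 2 against siTRIM28 2 and 3), a comparison chosen after seeing the data and with 10 counts required in only 2 libraries, the log2 fold changes were 2.54 for CXCL8, 0.54 for CXCL1, -1.13 for CCL2 and 3.31 for CCL5, and all 4 were called. Over all genes 8140 were called there.

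The groups share replicate numbers, but same-numbered libraries correlated at 0.0658, -0.0242 and 0.0506 in their deviations from the group means, so the numbers were not taken to pair the libraries. With the replicate block 7910 genes were called, and the log2 fold changes were 2.34 for CXCL8, 0.58 for CXCL1, 0.54 for CXCL2, 0.19 for CXCL3, -1.07 for CCL2, 3.36 for CCL5 and -3.54 for TRIM28, with no call changed among them. At 3 against 3 libraries an exact permutation test of a ratio cannot go below 0.1.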

Other observations

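Several related genes had too few counts to be tested and are given as counts only. CSF2, the granulocyte-macrophage colony-stimulating factor, had 0, 0 and 1 counts in siNC and 4, 3 and 2 in siTRIM28. CASP1, the protease that cleaves the IL-1β precursor, had 2, 6 and 5 counts in siNC and 12, 6 and 6 in siTRIM28. PPBPP2 (ENSG00000290910), a pseudogene between CXCL3 and CXCL2 in the CXC cluster, had 0 counts in siNC and 3, 3 and 1 in siTRIM28. ITGAM, an integrin of myeloid cells, had 15, 11 and 9 counts in siNC and 2, 6 and 3 in siTRIM28.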
